A study of Mus musculus with 20 samples.

Results

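The genes described here are 36 spermatogenesis and testis-associated genes, named by mouse symbol: structural genes of sperm, testis forms of common enzymes, tubulins and chaperones, spermatogonial stem cell genes and regulators of testis transcription. They were listed by name with earlier results of these data known, and each of the 36 matched 1 of the 49585 genes in the count tables. The questions were how many of them are expressed at all in fetal and newborn ovaries, and whether ovaries lacking Figla or Lhx8, which encode transcription factors of the early oocyte, release them.

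RNA-seq was done on whole ovaries of B6D2F1 mice in 20 libraries. Figla+/- controls and Figla-/- knockouts were taken at embryonic day 18.5 (E18.5) and on the day of birth (P0), and Lhx8-/- knockouts with their controls at P0. The genotype field gives the Lhx8 controls as Lhx8+/- while their library names call them WT, so they are called controls here. The labels do not say whether ovaries were pooled or which samples came from separate animals, so each p-value is set against variation among the samples at hand, some of which may be technical. The Figla libraries were fragmented from double-stranded cDNA along the transcript, whereas the Lhx8 libraries were made with a 3' end kit, and levels are not compared between the sets.

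Spermatogenesis runs from stem cells among the spermatogonia through meiosis to spermatids, in which histones are replaced by transition proteins and then protamines while the acrosome and the tail are built. Many genes of these late steps are transcribed only after meiosis in the male, often under CREM and testis-specific relatives of the general transcription machinery, and some of them are testis copies of genes used in every cell. Female germ cells enter meiosis before birth and arrest in it, so an ovary of this age holds germ cells that share early steps with the testis but make no spermatids.

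Total counts per library ranged from 5583392 to 13408022 in the Figla set and from 8297204 to 9978350 in the Lhx8 set. E18.5 control replicates 1 and 2 were near-identical, as were E18.5 knockout replicates 1 and 2, so each was summed and counted as 1 sample, which left 3 samples in every group. Samples were grouped by library name; the titles disagree with it for 6 of 14 Figla and 6 of 6 Lhx8 libraries, so that grouping the Lhx8 libraries by title would turn the sign of each difference. In CPM, counts scaled to a common library total after TMM normalization, Figla stood at 32.9 to 43.2 in P0 controls and 0.183 to 0.639 in P0 knockouts, and Lhx8 at 90.9 to 102 in Lhx8 controls and 16.7 to 30.3 in Lhx8 knockouts. E18.5 knockouts held 0.846 to 1.5 CPM of Figla. Samples titled as the other genotype had levels that went with the library name, except E18.5 control replicate 3, described below. Figla was at 0.846 in the summed E18.5 knockout replicates 1 and 2 and at 25.8 in E18.5 control replicate 4. It was at 0.183 in P0 knockout replicate 1 and at 43.2 in P0 control replicate 3. In the Lhx8 libraries the Lhx8 levels also went with the library names. E18.5 control replicate 3, which is titled as a knockout, stood apart. It held 3.65 CPM of Figla and 5.98 of Lhx8, against at least 22 and 94.7 in the other E18.5 controls. Its Figla level lay above the 0.846 to 1.5 CPM of the E18.5 knockouts, and its Lhx8 level lay below their 6.39 to 43. Its levels therefore do not settle which label is right. The summed level of 12 oocyte and germ cell markers, Figla and Lhx8 among them, was 422 CPM in that sample, 1350 and 1410 in the other E18.5 controls, and 413 to 525 in E18.5 knockouts. Each of the 10 pregranulosa markers reached 1 CPM in all 4 Figla groups.

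In the Figla libraries 19 of the 36 testis genes (52.8%) reached a group mean of 1 CPM, against 36.4% of all genes in the tables. The other 17 had some counts but stayed under 1 CPM in every group. In the Lhx8 libraries 16 of 36 (44.4%) reached 1 CPM, against 32.1% of all genes, while 14 had counts under that level and 6 had no count at all. The shares over all genes count every annotated entry, antisense and microRNA genes among them, so they are not shares of a like set. Of the 36, 15 reached 1 CPM in both sets, 4 in the Figla set alone (Gapdhs, Tssk1, Tssk6 and Hspa1l), 1 in the Lhx8 set alone (Tekt1) and 16 in neither. Controls and knockouts differed little in these numbers: 17 and 17 genes at E18.5, 18 and 16 at P0 in the Figla set, and 15 and 16 in the Lhx8 set.

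**Figure D1:**
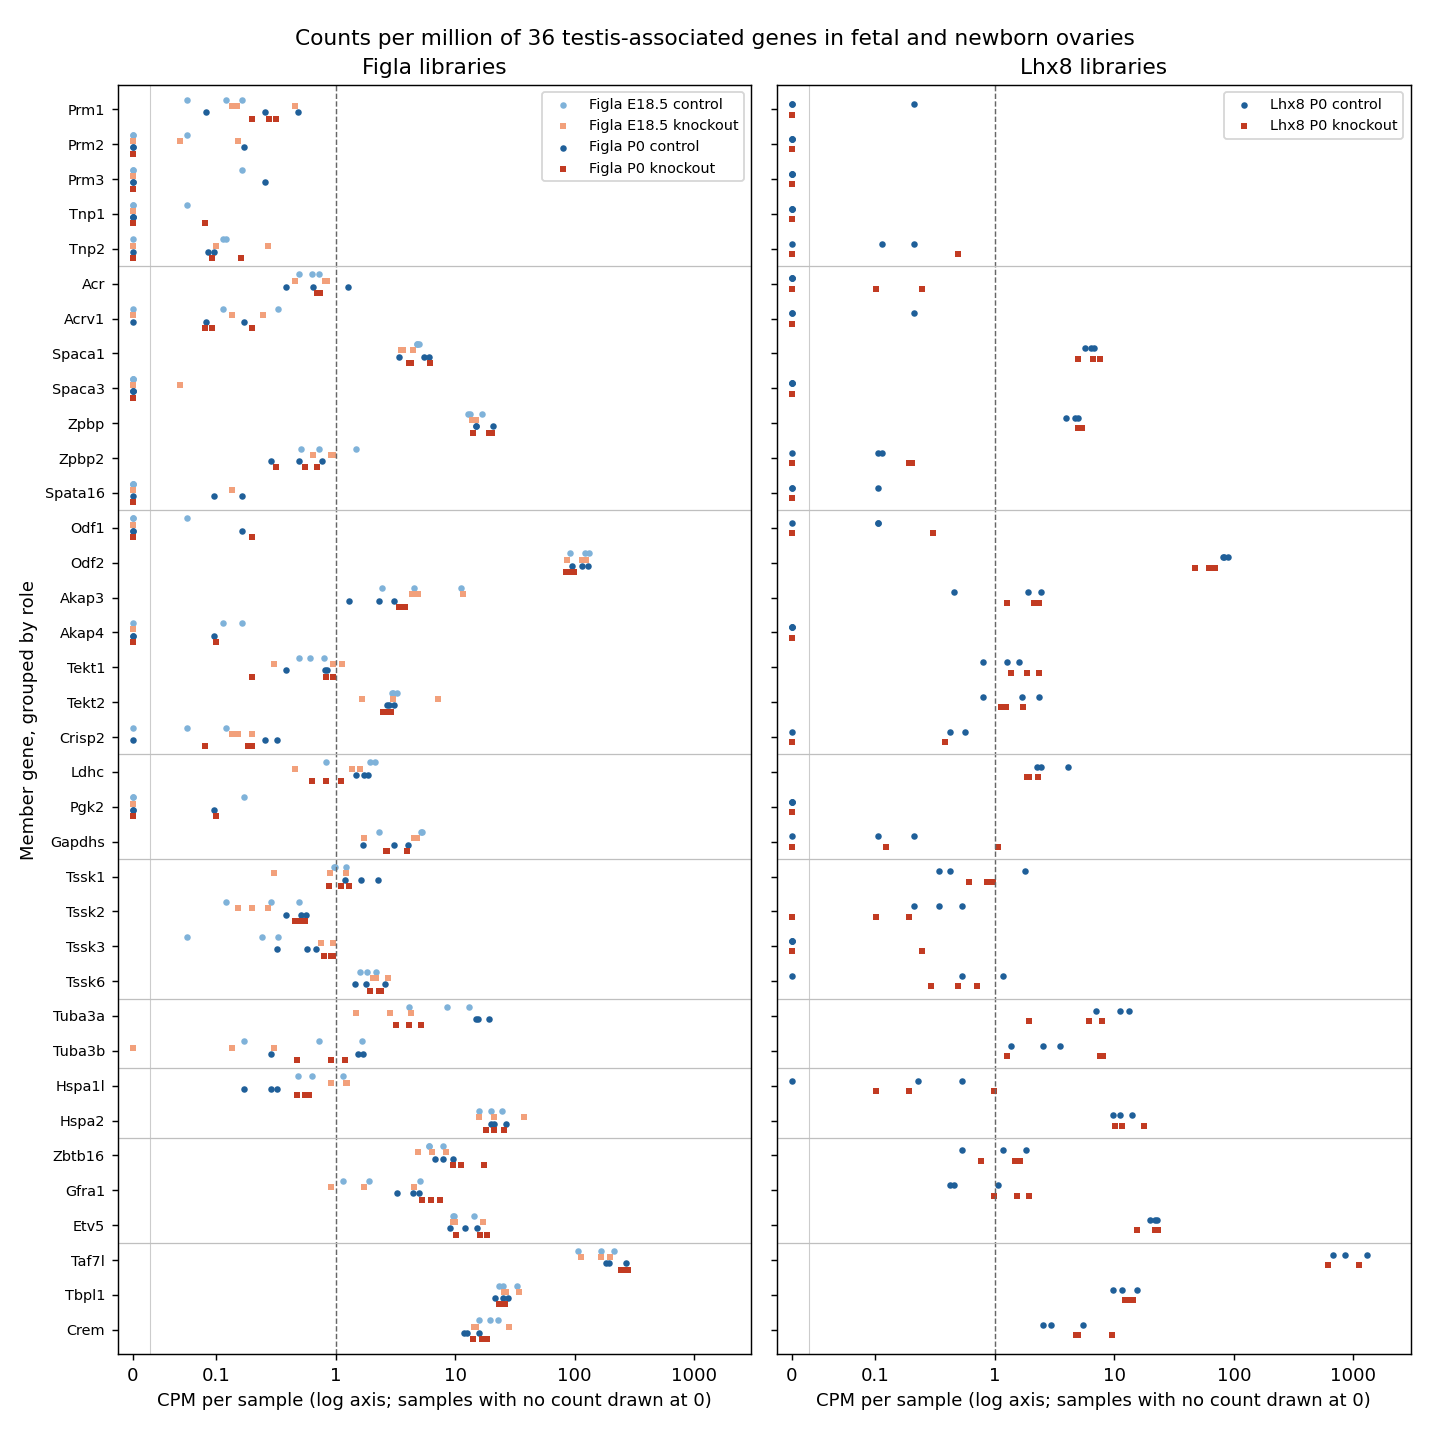
CPM on a log axis for each of the 36 genes (rows, grouped by role), with 1 point per sample; the left panel holds the 12 Figla samples and the right panel the 6 Lhx8 samples, and samples without a count are drawn at 0. The dashed line marks 1 CPM: the protamine and transition protein genes at the top lie left of it in every sample, and Taf7l and Odf2 lie farthest to the right.

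None of the 5 genes that package sperm chromatin reached 1 CPM in any group. Prm1, which encodes a protamine, had 28 counts over the 14 Figla libraries and 2 over the 6 Lhx8 libraries, with group means of 0.115 to 0.272 CPM in the Figla set. Prm2 had 5 counts and Prm3 had 4 in the Figla libraries, and neither had a count in the Lhx8 libraries. The transition protein genes Tnp1 and Tnp2, whose products precede the protamines on DNA, had 2 and 12 counts in the Figla set and 0 and 7 in the Lhx8 set. Prm1, Prm2, Prm3 and Tnp2 lie side by side on chromosome 16 (GRCm38, chr16:10787936-10796886). These are handfuls of counts at any depth reached here, and the 3 counts over a group that a count of 0 still allows come to 0.0828 to 0.109 CPM in these groups, for counting error only.

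Of 7 acrosome and egg coat binding genes, 2 were expressed in both sets. Zpbp, whose product binds the zona pellucida, ranged from 12.8 to 20.8 CPM over all Figla samples, and Spaca1, a membrane protein of the acrosome, from 3.42 to 6.12 CPM. Zpbp shares exon bases with Spata48 on the opposite strand, so its counts are uncertain. Its relative Zpbp2 had a highest group mean of 0.912 CPM and Acr, which encodes the protease acrosin, one of 0.771 CPM. Acrv1, Spata16 and Spaca3 had 17, 4 and 1 counts in the Figla libraries.

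Among 7 sperm tail genes the level of Odf2 stood out. Odf2 encodes an outer dense fibre protein that also belongs to centrioles outside the testis, and it ranged from 84.7 to 131 CPM in the Figla samples and from 46.8 to 88.4 in the Lhx8 samples. Its neighbour by name Odf1, which is restricted to the tail, had 5 counts in each set. Akap3, a kinase anchor of the fibrous sheath, had group means up to 6.94 CPM in the Figla set, while Akap4, the main protein of that sheath, had 5 counts in the Figla set and 0 in the Lhx8 set. Crisp2, a secretory protein of the sperm head and tail, had 20 and 13 counts.

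Tekt1 and Tekt2 encode tektins, filaments of the axoneme in sperm tails and in other motile cilia. Tekt2 had group means of 2.71 to 3.93 CPM in the Figla set. It shares 20.8% of its exon bases with Gm12945 on the opposite strand, so its counts are uncertain. Tekt1 stayed under 1 CPM in the Figla set but had means of 1.21 CPM in Lhx8 controls and 1.84 in Lhx8 knockouts. The 15 markers of motile cilia summed to 167 to 338 CPM in Figla P0 controls and 65.1 to 78.2 in knockouts, and to 224 to 264 in Lhx8 controls and 55.4 to 77.3 in knockouts. Ccno and Dnah9 fell in both knockouts at P0 and Hydin fell in the Figla knockout, out of 14 and 11 markers tested. The median log2 fold change over the tested markers was 0.12 in the Figla and 0.13 in the Lhx8 knockout at P0, so the lower sums were not shared by most markers. The part of these markers in the tektin levels was not tested.

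Of the 3 testis forms of glycolytic enzymes, Ldhc, a lactate dehydrogenase subunit, and Gapdhs, a glyceraldehyde phosphate dehydrogenase, passed 1 CPM in the Figla set, and Pgk2 had 5 counts there. Gapdhs shares 10.1% of its exon bases with Tmem147os on the opposite strand and is uncertain. Of the 4 testis-specific serine kinases, which act in late spermatids, Tssk1 and Tssk6 passed 1 CPM in the Figla set and none did in the Lhx8 set. Tssk6 shares 29.2% of its exon bases with Ndufa13 and Yjefn3 on the other strand. Tssk2, with 50 counts in the Figla libraries, and Tssk3, with 84, stayed under 1 CPM.

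Hspa2, an HSP70 chaperone of meiotic cells, ranged from 15.8 to 37.7 CPM in the Figla samples and from 9.71 to 17.5 in the Lhx8 samples. Hspa1l, the other testis-associated chaperone of the family, stayed near 1 CPM or under it, and 71.9% of its exon bases overlap Gm10501 on the opposite strand. The 3 spermatogonial stem cell genes were expressed in both sets. Etv5, a transcription factor that responds to GDNF, ranged from 9.12 to 18.6 CPM in the Figla samples, and 24.5% of its stretches of 50 bases also occur in Gm4798. Zbtb16, which keeps stem cells from differentiating, ranged from 4.87 to 17.4 CPM and Gfra1, the GDNF receptor, from 0.913 to 7.43 CPM. Gfra1 shares 7.6% of its exon bases with Gm16277 on the opposite strand.

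All 3 transcription regulators were expressed. Taf7l, an X-linked relative of a TFIID subunit, was the highest of the 36 genes, from 107 to 279 CPM in the Figla samples and from 613 to 1300 CPM in the Lhx8 samples. Per kilobase of exon it also led in the Figla set, at 71.9 RPKM in E18.5 controls and 119 in P0 knockouts, with Odf2 next at up to 11.6 RPKM and Tuba3a at up to 10.9. Tbpl1, a relative of the TATA-binding protein, ranged from 21.6 to 33.9 CPM in the Figla samples and shares 12.4% of its exon bases with Slc2a12. Crem, which encodes the activator of many spermatid genes and also repressor forms used elsewhere, ranged from 11.9 to 28.4 CPM there, and counts per gene do not tell these forms apart.

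Figla knockout and control ovaries at E18.5 were compared first. Of the 16 testis genes with enough counts to test, 0 were higher and 0 were lower in knockouts by edgeR's quasi-likelihood test at an adjusted p under 0.05. Over all 16131 genes tested, 0 were higher (0.0%) and 1 was lower (0.0062%), so this comparison called almost no gene. These all-gene counts depend on the grouping. Grouping by title gave 2079 higher and 1981 lower of 16295 genes. That fit took the near-identical replicates 1 and 2 as separate samples. It set replicates 1 and 2 of both named genotypes against replicates 3 and 4 of both. Title and library name agree at E18.5 only for control replicates 1 and 2, which are 1 summed sample, and knockout replicates 3 and 4. Calls are therefore not given for the agreeing libraries. With no adjustment 1 of the 16 passed 0.05, Tuba3a (log2 fold change -1.61), against 3.76% of all genes, and DESeq2 also called 0 of 16, with 0.0992% of all genes higher and 0.384% lower. The log2 fold changes had a median of -0.01, against 0.01 over all genes tested. For 11 of the 16 the 95% interval lay below a 2-fold rise; it reached that far for Tekt2, Akap3, Tssk6, Hspa2 and Gfra1. Without E18.5 control replicate 3 the test again called 0 of 16, with 0 at an unadjusted p under 0.05. Over all 16761 genes tested, that fit called 0 higher and 89 lower, with 945 at an unadjusted p under 0.05.

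At P0, 1 of 18 testis genes tested passed the threshold in the Figla knockout. In this comparison 0 of 18 were called higher, against 5.12% of all 17321 genes tested, and 1 of 18 lower, Tuba3a, against 10.9% of all genes. With no adjustment 5 of 18 passed 0.05, namely Tuba3a, Ldhc and Odf2 with negative log2 fold changes and Zbtb16 and Gfra1 with positive ones, a share near the 30.8% of all genes that did. DESeq2 also called 0 higher and 1 lower, against 6.73% and 11.7% of all genes. The median log2 fold change was 0.05 over the 18 and 0.02 over all genes. For 15 of the 18 the 95% interval lay below a 2-fold rise, and it reached that far for Akap3, Zbtb16 and Gfra1.

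**Figure D2:**
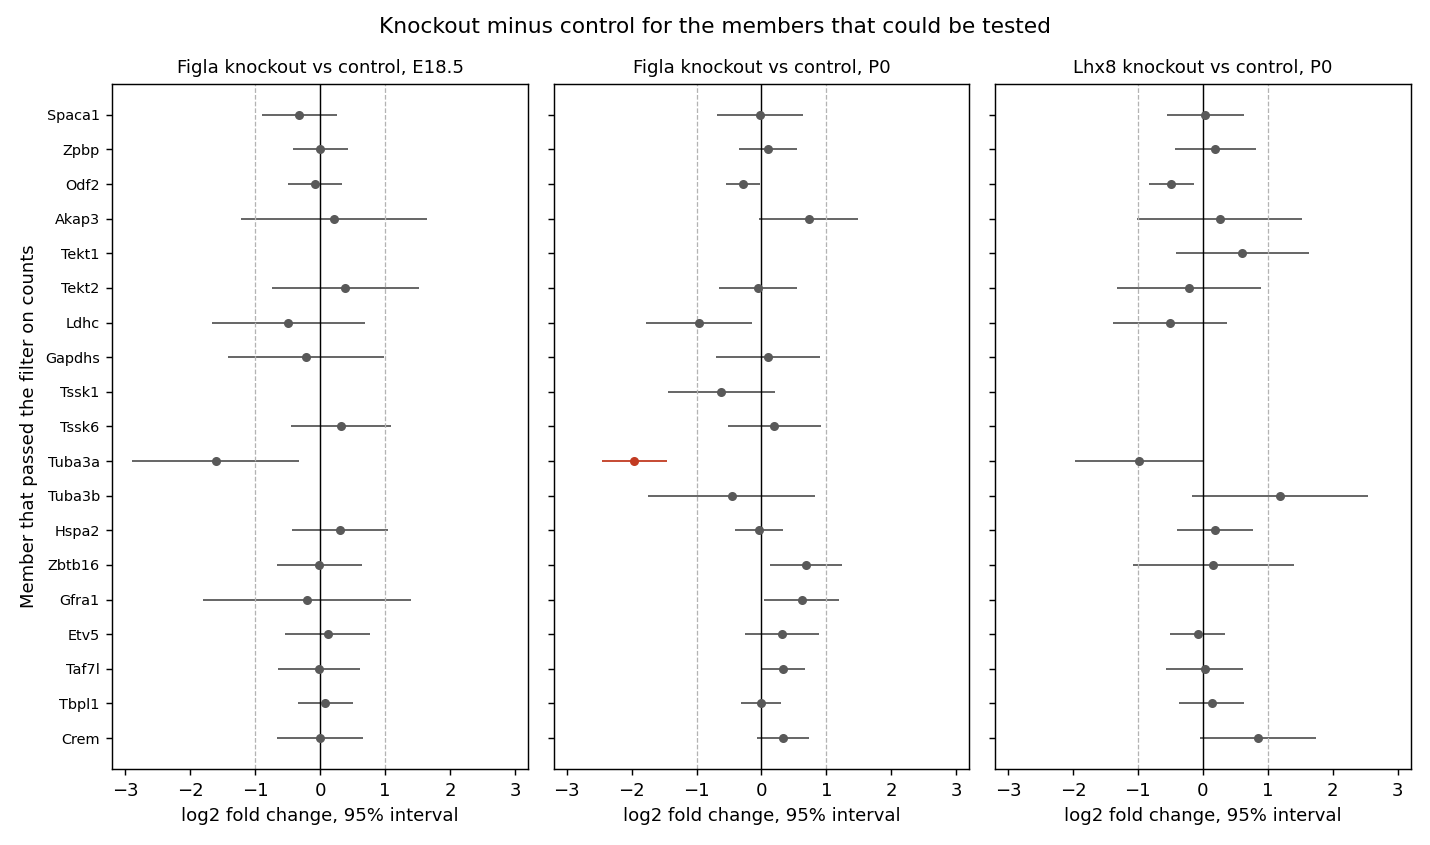
Log2 fold change of knockout over control (points) with 95% intervals (lines) for the members tested in each comparison; dashed lines mark a 2-fold fall and a 2-fold rise. The red point is Tuba3a in the Figla knockout at P0, at -1.96, the member past an adjusted p of 0.05.

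Several members that did not pass the adjusted threshold at P0 still separated the groups. Zbtb16 was measured at 6.72, 9.51 and 7.98 CPM in controls and at 17.4, 11.1 and 9.63 in knockouts, a log2 fold change of 0.68 ± 0.252 (SE, n = 3 per group; edgeR adjusted p = 0.093). Gfra1 was at 4.94, 3.26 and 4.4 CPM in controls and at 5.32, 7.43 and 6.32 in knockouts (0.62 ± 0.261 (SE), edgeR adjusted p = 0.136). Both genes had every knockout sample above every control, and Zbtb16 passed the threshold when low genes were not filtered out (edgeR adjusted p = 0.0416). The unfiltered fit called 1379 of 33637 genes higher. Ldhc lay at 1.87, 1.73 and 1.47 CPM in controls and at 0.825, 0.639 and 1.1 in knockouts (log2 fold change -0.96 ± 0.368 (SE), edgeR adjusted p = 0.102). Its groups did not overlap either, in the other direction. In all, 5 of the 35 members with counts had every knockout sample above every control (Akap3, Tssk3, Hspa1l, Zbtb16 and Gfra1), against 9.4% of all genes, and 2 of 35 had every knockout below (Ldhc and Tuba3a), against 13.6%.

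Taf7l, the most abundant member, was at 270, 183 and 193 CPM in P0 controls and at 276, 244 and 279 in P0 knockouts. The difference was 0.33 ± 0.151 on the log2 scale (SE, edgeR adjusted p = 0.167). The highest control lay within the range of the knockouts, and without P0 control replicate 1 the value was 0.53 and passed the threshold (edgeR adjusted p = 0.0106). Odf2 was at 116, 95.9 and 129 CPM in controls and 92.4, 97.8 and 84.7 in knockouts (-0.28 ± 0.12 (SE), edgeR adjusted p = 0.139). The lowest Odf2 control lay below the highest knockout.

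The lowest members were looked at for a release that the filter on counts would hide. At E18.5, 2 of 36 had every knockout sample above every control, Crisp2 and Tssk3, against 2.6% of all genes with counts, and 1 of 36 had every knockout below, Spaca1, against 3.55%. Tssk3, a kinase of late spermatids, was at 0.0573, 0.332 and 0.242 CPM in E18.5 controls and at 0.946, 0.761 and 0.956 in knockouts, from 5 and 31 counts per group. At P0 it was at 0.681, 0.576 and 0.326 CPM in controls and at 0.917, 0.958 and 0.802 in knockouts, from 18 and 30 counts. Knockouts lay above controls at both ages, at levels under 1 CPM throughout. Tested in 1 model of all Figla samples, Tssk3 did not pass the threshold at E18.5 (log2 fold change 2.32, edgeR adjusted p = 0.158) or at P0 (0.78, edgeR adjusted p = 0.357). Crisp2 rested on 2 counts in E18.5 controls and 6 in E18.5 knockouts.

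Few members crossed 1 CPM between control and knockout. At E18.5 the mean of Hspa1l was 0.759 CPM in controls and 1.13 in knockouts, and that of Tssk1 crossed downward. At P0 no member crossed upward in the Figla knockout, and Ldhc (1.69 ± 0.206 and 0.856 ± 0.234 CPM, SD, n = 3) and Tuba3b crossed downward. In the Lhx8 set Gfra1 crossed upward, from 1.06, 0.421 and 0.452 CPM in controls to 1.54, 1.93 and 0.983 in knockouts, with overlapping groups. Of the protamine genes, Prm1 had 9 and 9 counts and Prm2 had 2 and 0 in P0 Figla controls and knockouts. Small changes were not detectable at such counts. For the pooled counts of P0 knockouts, the upper 95% limit was 0.504 CPM for Prm1 and 0.109 for Prm2, for counting error only. Both limits lie under 1 CPM.

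Lhx8 knockout and control ovaries at P0 were compared in the same way. Of 15 testis genes tested, 0 were higher and 0 lower by edgeR at an adjusted p under 0.05, against 3.06% higher and 7.29% lower of all 15274 genes tested. With no adjustment 1 passed 0.05, Odf2, against 27.8% of all genes. DESeq2 called 0 of 15, against 4.94% of all genes higher and 9.19% lower, and 4 had an unadjusted p under 0.05, against 26.9%. The median log2 fold change was 0.14 over the 15 and 0.05 over all genes. For 10 of the 15 the interval lay below a 2-fold rise, and it reached that far for Akap3, Tuba3b, Zbtb16, Tekt1 and Crem.

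Odf2 was at 88.4, 81.6 and 83.1 CPM in Lhx8 controls and at 46.8, 69.6 and 62.3 in knockouts, a log2 fold change of -0.48 ± 0.158 (SE, edgeR adjusted p = 0.0794). Every knockout lay below every control, and the value passed the threshold when low genes were kept (edgeR adjusted p = 0.0333), in a fit that called 1712 of 26816 genes lower. Odf2 and Tssk2 were the 2 of 30 members with counts whose knockouts all lay below the controls, against 12.8% of all genes, and 0 of 30 had all knockouts above, against 10.2%. Crem was at 2.53, 2.95 and 5.42 CPM in controls and 9.53, 4.99 and 4.79 in knockouts (0.85 ± 0.404 (SE), edgeR adjusted p = 0.201). Its groups overlapped. Taf7l was at 1300, 846 and 676 CPM in controls and 613, 1120 and 1110 in knockouts, a difference of 0.03 with a 95% interval of -0.56 to 0.62 on the log2 scale.

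Germ cell markers moved with both knockouts at P0. Of the 12 oocyte and germ cell markers 11 fell in the Figla knockout, where their sum was 678 to 750 CPM against 1910 to 2880 in controls with Zp3 at 0, and 8 of 11 tested fell in the Lhx8 knockout, with a sum of 548 to 731 against 1420 to 1810 and Pou5f1 at 0. The median log2 fold changes were -3.22 and -2.01. These markers include Figla and Lhx8, so the targeted gene of each knockout is part of these counts and sums. In whole ovaries, fewer germ cells and less RNA per germ cell cannot be told apart. Sertoli markers, the somatic markers of the testis, summed to 66.4 to 87.7 CPM in Figla P0 controls and 86.8 to 96.2 in knockouts, with 0 of 11 past the threshold by edgeR, 1 by DESeq2 and 2 at an unadjusted p under 0.05. In the Lhx8 set they summed to 105 to 123 in controls and 126 to 176 in knockouts, where Dmrt1, Aard and Sox9 rose and Rhox5 fell, out of 10 tested. Etd was at 0 in every group and Amh at 0 in Lhx8 controls. Endothelial markers summed to 270 to 374 CPM in Figla P0 controls and 439 to 504 in knockouts, with 4 of 6 higher, among them Tek, Cdh5 and Tie1, and 0 of 6 passed in the Lhx8 set. Pregranulosa markers summed to 1350 to 1750 CPM in Figla P0 controls and 2020 to 2180 in knockouts, where Fst and Kitl of 10 rose, and to 1370 to 1510 in Lhx8 controls and 1580 to 1840 in Lhx8 knockouts, where Kitl and Irx5 of 9 rose. Of 6 macrophage markers 1, Csf1r, rose in the Figla knockout at P0, with sums of 41.4 to 49.8 in controls and 58.9 to 76.5 in knockouts. The part of these markers in the members' values was not tested.

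The member past the threshold was Tuba3a, an alpha-tubulin gene of the testis (ENSMUSG00000067702, GRCm38, chr6:125278274-125286042, minus strand). It was at 14.8, 15.5 and 19.1 CPM in Figla P0 controls and at 4.13, 3.19 and 5.22 in P0 knockouts, so the highest knockout lay well under the lowest control. The log2 fold change was -1.96 ± 0.225 (SE, 95% interval -2.46 to -1.46, n = 3 per group, edgeR adjusted p = 0.000264). Leaving out any 1 sample gave -2.15 to -1.79, past the threshold each time. Grouping the libraries by title in place of library name ended the call (-0.35, edgeR adjusted p = 1.0), in a fit that called 0 of 17321 genes, with 507 at an unadjusted p under 0.05. The libraries whose labels agree gave -1.85 (edgeR adjusted p = 0.00344).

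With samples grouped by library name, the mean of Tuba3a was also lower in the other knockout groups, without passing the threshold. At E18.5 it was at 4.13, 13 and 8.6 CPM in controls and at 1.49, 4.26 and 2.87 in knockouts (-1.61 ± 0.553 (SE), edgeR adjusted p = 1.0). The highest knockout lay just above the lowest control. Control replicate 3, the sample with few germ cell markers, had the highest Tuba3a level of that group, and without it the difference was -1.15 (edgeR adjusted p = 0.965). The direction at E18.5 depends on the labels. Grouping by title turned the log2 fold change to 1.45 (edgeR adjusted p = 0.0709). That fit took each library as its own sample, and each of its groups mixed samples with high and low Figla levels. The libraries whose labels agree, with 1 summed control sample, gave -0.16. In the Lhx8 set Tuba3a was at 7.07, 13.3 and 11.2 CPM in controls and at 1.92, 7.83 and 6.14 in knockouts (-0.98 ± 0.442 (SE), edgeR adjusted p = 0.182), with overlapping groups. It passed when low genes were kept (-0.99, edgeR adjusted p = 0.024), as did 1712 of 26816 genes called lower in that fit. The difference of the Figla effect between P0 and E18.5 was -0.33 on the log2 scale (95% interval -1.65 to 1.0, edgeR adjusted p = 0.961).

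Tuba3b, the near copy of Tuba3a on the same chromosome (ENSMUSG00000067338, chr6:145615757-145621479, plus strand), behaved less evenly. In the Figla set it had few counts. At E18.5 it was at 0.172, 1.66 and 0.726 CPM in controls and at 0.0, 0.304 and 0.137 in knockouts, from 19 and 3 counts per group, with overlapping groups, and it did not pass the filter on counts there. P0 controls held 1.53, 0.288 and 1.71 CPM of Tuba3b and P0 knockouts 0.917, 0.479 and 1.2 (-0.46 ± 0.58 (SE), edgeR adjusted p = 0.642). In the Lhx8 set it was at 2.53, 1.37 and 3.5 CPM in controls and at 1.25, 7.94 and 7.62 in knockouts (1.19 ± 0.61 (SE), edgeR adjusted p = 0.235). The lowest value was in knockout replicate 1, without which the difference was 1.67 and passed the threshold (edgeR adjusted p = 0.0242). With low genes kept it passed with every sample in (1.17, edgeR adjusted p = 0.0496), in a fit that called 970 of 26816 genes higher. The same replicate was the lowest for Tuba3a. Added together, the tubulins came to 9.61, 14.6 and 14.7 CPM in Lhx8 controls and 3.18, 15.8 and 13.8 in Lhx8 knockouts, which overlap, and to 15.7 to 20.9 CPM in Figla P0 controls and 3.67 to 6.42 in P0 knockouts, which do not.

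**Figure D3:**
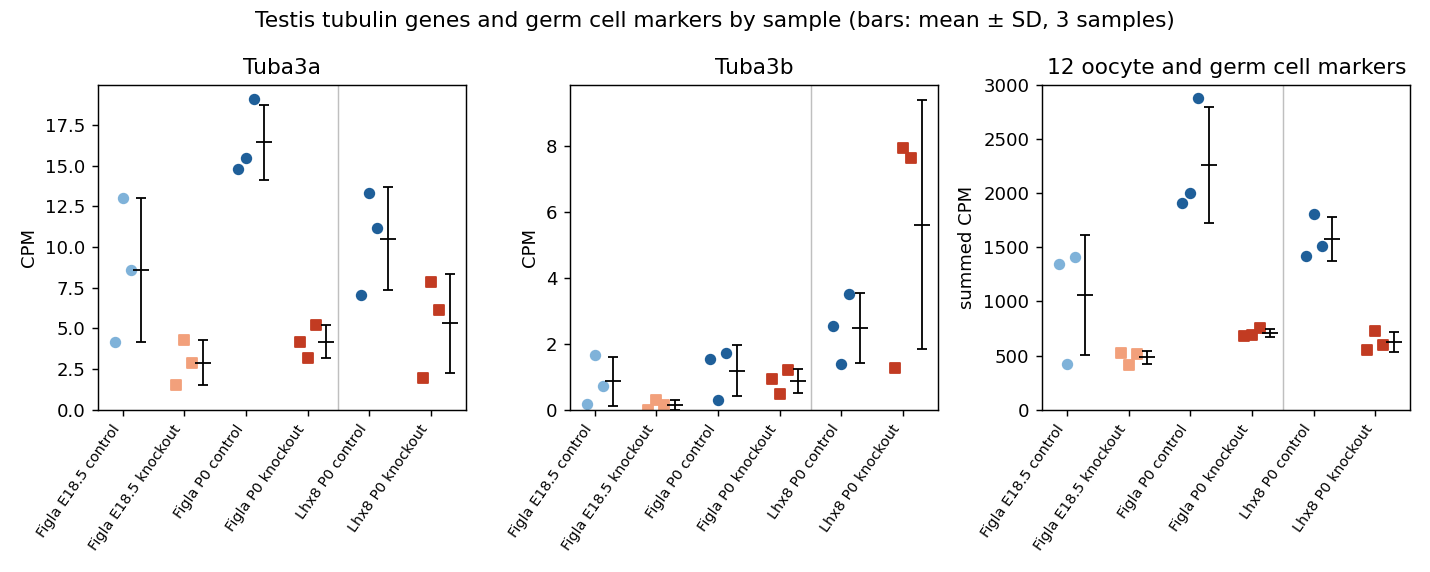
Tuba3a and Tuba3b in CPM and the summed CPM of 12 oocyte and germ cell markers (Figla and Lhx8 among them), by sample (points) in the 6 groups, with the mean ± SD of 3 samples beside them. The grey line divides the Figla from the Lhx8 libraries. Tuba3a lies between 14.8 and 19.1 CPM in Figla P0 controls and at 5.22 or less in P0 knockouts, while Tuba3b in Lhx8 knockouts has 1 low and 2 high samples.

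How far the counts tell these tubulins apart depends on their sequence, which is shown for that reason. Their coding sequences are each 1353 bases long in GENCODE M21 (GRCm38), differ at 41 positions and are 97.0% identical, with a longest identical run of 155 bases. Of the 50-base stretches in the Tuba3a transcript, 32.4% also occur in Tuba3b, and 35.3% occur in some other gene. The file headers show no option to count reads with several matches, or reads over exons of more than 1 gene, and featureCounts leaves such reads out by default. Tuba3a also overlaps 4930417O13Rik on the opposite strand over 4.97% of its exon bases. Coding bases 273 to 372 hold 12 of the differences, which are in capitals:
Tuba3a: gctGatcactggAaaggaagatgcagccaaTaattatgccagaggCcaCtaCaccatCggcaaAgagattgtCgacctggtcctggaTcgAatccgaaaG
Tuba3b: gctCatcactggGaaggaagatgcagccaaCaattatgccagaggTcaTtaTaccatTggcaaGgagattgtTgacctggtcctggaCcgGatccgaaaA

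The promoters of the pair are related but less alike, and are shown because FIGLA belongs to the bHLH family, whose members bind E-boxes. The windows run from 250 bases before to 50 after the start in RefSeq on GRCm38.p6, at chr6:125286032-125286331 on the minus strand for Tuba3a and chr6:145615713-145616012 on the plus strand for Tuba3b. Capitals mark each match to the E-box CANNTG, which reads the same pattern on both strands:
Tuba3a: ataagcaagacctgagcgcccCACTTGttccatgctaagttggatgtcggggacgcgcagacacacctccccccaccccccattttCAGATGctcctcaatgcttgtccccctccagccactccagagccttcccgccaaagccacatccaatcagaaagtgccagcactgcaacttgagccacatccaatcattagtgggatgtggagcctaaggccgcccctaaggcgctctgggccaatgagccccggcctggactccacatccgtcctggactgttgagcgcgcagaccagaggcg
Tuba3b: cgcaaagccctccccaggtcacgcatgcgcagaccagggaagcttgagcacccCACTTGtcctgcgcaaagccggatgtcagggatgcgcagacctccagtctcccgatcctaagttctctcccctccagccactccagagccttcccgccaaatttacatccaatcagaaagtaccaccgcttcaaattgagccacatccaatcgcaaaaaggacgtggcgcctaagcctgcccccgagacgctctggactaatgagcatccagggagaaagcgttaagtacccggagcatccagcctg
Tuba3a has 2 matches, starting at -229 and -164 from the start site, and Tuba3b has 1, at -197. A match of these letters is common: 72.3% of the 32851 windows in the table hold at least 1, as do 70.5% of the 44 windows of the 32 members found there. The CRE palindrome TGACGTCA, the full site of CREM, was in 1.79% of all windows and the homeobox core TAATTA, which LIM homeodomain factors can bind, in 5.29%, and neither was in a member's window. Both strands were covered in these searches, since each pattern is its own reverse complement.

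No member passed the threshold between E18.5 and P0. In controls 0 of 22 tested passed an adjusted p under 0.05 by edgeR, as did 0 of all 18379 genes (0.0% higher and 0.0% lower), and 5 of 22 had an unadjusted p under 0.05, Tssk3, Tuba3a, Akap3, Hspa1l and Crem, against 23.1% of all genes. DESeq2 also called 0 of 22 in controls, but 1052 of all genes (5.72%) higher and 564 (3.07%) lower, so the number of genes called with age depends on the tool. Without E18.5 control replicate 4, edgeR called 439 higher and 117 lower, again with 0 of 22 members. Akap3 was at 4.53, 11.1 and 2.42 CPM in E18.5 controls and 3.06, 2.3 and 1.3 in P0 controls (-1.45 ± 0.547 (SE), edgeR adjusted p = 0.145), with overlapping groups. It passed when low genes were kept (edgeR adjusted p = 0.0421), in a fit that called 829 of 36943 genes higher and 423 lower. In knockouts 0 of 22 passed by edgeR (0.0% of all genes were higher and 0.00544% lower) and 0 of 22 by DESeq2 (0.49% and 1.19%), with 5 at an unadjusted p under 0.05 by edgeR, against 12.6% of all genes. Taf7l had a log2 fold change of 0.73 ± 0.243 with age in knockouts (SE, edgeR adjusted p = 0.262). It passed when low genes were kept (edgeR adjusted p = 0.0203), in a fit that called 117 of 36943 genes higher and 413 lower. The Figla effect differed between the ages in 0 of 22 members by either tool, with 0 at an unadjusted p under 0.05 by edgeR, against 5.32% of all genes. Over all genes it differed in 0.0% in either direction by edgeR, and by DESeq2 0.00544% were higher and 0.0109% lower.

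The same question was put to 94 other genes of the same processes, of which 93 were in the tables. In the Figla knockout at P0, 55 could be tested: 8 were higher, where 5.12% of all genes were, and 14 were lower, where 10.9% of all genes were. Their median log2 fold change was -0.04, against 0.02 over all genes. The genes that rose came from 5 lists, which were drawn up with earlier results known and are described here without a test of the lists. Among sperm tail genes, Spag16, of the axoneme's central pair, rose by 1.67 ± 0.359 (SE, log2, edgeR adjusted p = 0.0107) and Cabyr, a calcium-binding protein of the fibrous sheath, by 1.14. Brdt, the testis bromodomain protein that reads acetylated histones, was at 23.7 to 35.6 CPM in controls and 55.4 to 69.1 in knockouts and rose by 1.14 ± 0.163 (SE, edgeR adjusted p = 0.000985). Dpy19l2, needed to fix the acrosome to the nucleus, rose by 1.29. Among regulators Ctcfl, a germline relative of CTCF, rose by 1.41 and Sox30 by 0.87, and among spermatogonial genes Ret, the signalling partner of GFRA1, rose by 1.24 and Dusp6 by 0.61. Brdt and Ret passed the threshold in every fit that left out 1 sample. Spag16 did not without knockout replicate 3 (edgeR adjusted p = 0.0525), nor Dpy19l2 without knockout replicate 2 (edgeR adjusted p = 0.0724), and Cabyr, Ctcfl, Sox30 and Dusp6 each failed in at least 4 of the 6 such fits, with edgeR adjusted p-values up to 0.15, 0.119, 0.101 and 0.183.

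The genes that fell in these lists included ones used by oocytes too. The spermatogonial genes Kit, Lin28a and Sohlh2 fell by 3.67, 3.17 and 1.41, in a list of 15 tested with 2 higher and 5 lower. Rnf8, a ubiquitin ligase that acts in histone removal, fell by 1.56, Cdyl by 0.87 and Meig1 by 1.34, in a chromatin list of 7 tested with 1 higher and 3 lower; Meig1 failed in each of the 6 fits without 1 sample (edgeR adjusted p from 0.0788 to 0.16). Ybx2, an RNA-binding protein of germ cells, fell by 1.12. Tbpl2, a relative of the TATA-binding protein and of Tbpl1, had 130 counts in controls and 0 in knockouts. The regulator list of 16 tested held 2 higher and 4 lower, and the sperm tail list of 6 tested held 2 higher and 1 lower. Not all of the lower genes are named. Some lower regulators not named lost their calls in fits that left out 1 sample (edgeR adjusted p up to 0.177). In the Lhx8 knockout 48 were tested, 1 was higher, Dmrt1 (0.527 to 1.16 CPM in controls and 4.23 to 42.6 in knockouts), where 3.06% of all genes were higher, and 4 were lower, Kit, Rnf8, Sohlh2 and Prdm9, where 7.29% of all genes were; DESeq2 called 1 higher and 8 lower of the same 48. Sohlh2 (edgeR adjusted p up to 0.148) and Prdm9 (up to 0.182) failed in 5 and in 6 of the 6 fits that left out 1 sample. Dmrt1 is also one of the Sertoli markers and Kit one of the oocyte and germ cell markers, so their calls enter both lists. At E18.5 0 of 51 passed by edgeR, where 0.0% of all genes were higher and 0.0062% lower. With no adjustment 6 of 51 had an edgeR p under 0.05, against 3.76% of all genes. DESeq2 called 1 of 51 higher, Brdt, against 0.0992% of all genes, and 0 lower, against 0.384%.

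**Figure D4:**
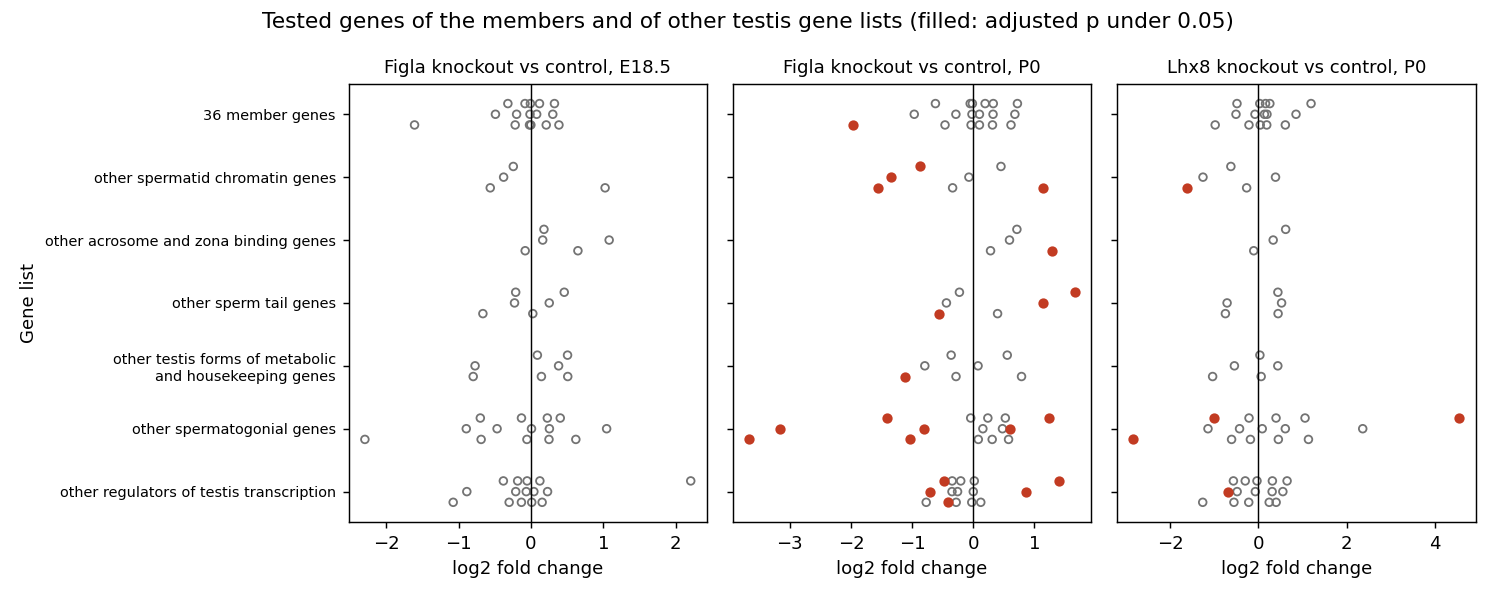
Log2 fold change of knockout over control for the tested members (top row) and for the tested genes of the 6 other testis gene lists, 1 point per gene; filled points passed an adjusted p of 0.05, and Tbpl2, with 0 counts in P0 knockouts of both sets, is not drawn. In the middle panel 1 member is filled, at -1.96, and the other lists hold filled points on both sides of 0.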

How the data were processed

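Each deposited table holds raw counts per gene for 1 library, which the authors made with featureCounts 1.6.0 and the GENCODE M12 annotation without using strand, per the file headers. The submitters' processing notes name cutadapt for trimming, HISAT2 for alignment and the GRCm38.p5 genome; tool versions: not given in the sources used here. Reads over exons of both a gene and its antisense partner were left out by the default counting, antisense reads elsewhere in a gene's exons were counted with it, and 3' end counts do not scale with transcript length.

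The members and gene lists were chosen with earlier results of these data known. All 36 members are named, and from each other list at most the 3 genes past the threshold with the largest change in each direction, beside the targeted genes and markers at 0. Samples were grouped by library name, and E18.5 replicates 1 and 2 of each genotype were summed because they differed by a chi-square of 1.12 and 1.32 per degree of freedom, against 6.62 to 62.3 for other pairs. Each contrast was fitted with edgeR 4.0.16 in R 4.3.3 (filterByExpr with a minimum count of 10 and total of 15, TMM scaling, quasi-likelihood test, Benjamini-Hochberg adjustment over all genes tested, threshold 0.05) and tested on simulated data. Age contrasts and the interaction used 1 model of all Figla samples. The alternatives were RLE size factors, DESeq2 1.42.0, no filter, each library as its own sample, grouping by title (with no libraries summed), agreeing labels, 1 model of all Figla samples, each sample left out, a replicate block and other expression thresholds. Symbols came from the annotation for 49326 of 49585 gene identifiers. Intervals and floors cover counting error only, as no molecular identifiers are recorded.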

Additional observations from a re-analysis of the deposited data

How the results depend on the processing

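The number of members counted as expressed was 24 at 0.5 CPM and 15 at 2 CPM in the Figla set and 18 and 11 in the Lhx8 set, within 1.5 times of 19 and 16. The count of members called moved in these cases. With groups from the titles, 1 member was higher and 4 were lower at E18.5, and 0 were lower in the Figla knockout at P0. With no filter on low counts, 1 was higher in the Figla knockout at P0 (Zbtb16), 1 was higher and 2 were lower in the Lhx8 knockout, 1 was lower with age in controls and 1 was higher with age in knockouts. Over all genes the unfiltered fits also called more than the main ones. With age they called 829 higher and 423 lower in controls, where the main fit called 0 and 0. Leaving out 1 sample gave 0 to 1 members higher in each knockout at P0. Of the 6 members called under some setting other than the titles, 0 changed direction in the comparison where they were called. Over all genes, and over the alternatives that grouped samples by library name alone, the calls ranged from 265 to 1379 higher and 1098 to 2481 lower for the Figla knockout at P0, from 99 to 970 and 531 to 1712 for Lhx8, and from 0 to 63 and 0 to 166 at E18.5. Outside these ranges, grouping by title called 0 and 0 at P0 and 2079 and 1981 at E18.5. The title fit at E18.5 took the near-identical libraries as separate samples and mixed the named genotypes in each group. No calls are given for the agreeing E18.5 libraries, which hold 1 summed control sample. Replicate numbers of the Lhx8 set did not pair the samples (correlations of -0.154, 0.0471 and 0.0381); with a replicate block 0 of 17 members passed, with 219 of all genes higher and 721 lower, and Sohlh2 and Prdm9 of the other lists lost their calls. Depth limits the members under 1 CPM, most of which could not be tested.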
